A study of Homo sapiens with 12 samples.

Results

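The genes described here encode potassium, sodium and calcium channels, and they were taken by symbol from an RNA-seq table of human neuroblastoma cells. A listed gene was a member if its symbol began with KCN, SCN or CACN and followed the naming of the pore-forming and auxiliary subunits of these channels, which gave 135 of the 27514 listed genes. The samples were IMR32, an established neuroblastoma cell line with amplified MYCN, electroporated with small interfering RNAs (siRNAs) and cultured for 72 h before total RNA was extracted. All 12 samples received an siRNA, 3 in each of 4 groups: a control siRNA (siCTR, here siCtrl), siMYCN_2 against MYCN (siMYCN), siHAND2_3 against HAND2 (siHAND2), or siM2+siH2_3 against both (combined). The design asks which genes depend on these transcription factors. A single cell line and a single siRNA label per target were used, and the labels do not say whether the replicates were separate cultures, so the tests measure the spread between these samples, which may be technical.

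Voltage-gated sodium and calcium channels open when the membrane depolarises and carry the inward currents of action potentials and of transmitter release, while potassium channels carry the outward currents that end them and set the resting potential. Each channel is a pore-forming subunit or an assembly of them, and auxiliary subunits alter its opening or its transport to the surface. Neuroblastoma arises from the sympathetic lineage of the neural crest, whose mature neurons are excitable. MYCN is an oncogenic basic helix-loop-helix factor and HAND2 a basic helix-loop-helix factor of sympathetic development, and both bind E-box sequences as dimers.

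Values are CPM, the reads of a gene scaled to library size, and differences are log2 changes computed on log2(CPM + 1), so that changes of low genes come out too small. A gene is termed called if its limma adjusted p was under 0.05 among the 12680 genes averaging 1 CPM or more. Estimated depth was 31.6 to 64.2 M reads per sample, at which 3 reads correspond to 0.0468 to 0.0949 CPM. MYCN stood at 1009 CPM in siCtrl, and siMYCN held 67.5% of that level, siHAND2 84.1% and the combined knockdown 47.7%. HAND2 stood at 239 CPM in siCtrl, and at 136%, 26.0% and 30.7% of that level in the same order. The share of reads that lay in the listed genes fell from 64.3 to 65.8% in siCtrl to 44.3 to 58.4% in the combined knockdown, and over all tested genes the log2 change had a median of 0.01 for siMYCN, -0.14 for siHAND2 and -0.28 for the combined knockdown. For that reason calls are also given after rescaling, in which each library was divided by the median over genes of its CPM relative to the all-sample geometric mean, and this brought the medians to 0.01, 0.01 and 0.04. Of 10 sympathetic neuroblastoma markers, HAND2 among them, 9 had a mean of at least 1 CPM, and their sum was 887 to 949 CPM in siCtrl, 1261 to 1278 in siMYCN, 897 to 949.6 in siHAND2 and 760 to 1142 in the combined knockdown. They went in different directions: the catecholamine enzyme gene DBH stood at 302%, 35.1% and 35.6% of its siCtrl mean in the 3 knockdowns, and ISL1, a factor of sympathetic neurons, at 146%, 222% and 302%. TH, another catecholamine enzyme gene, was low throughout, with a mean of 0.120 CPM in siCtrl and means of 0.350, 1.07 and 1.58 CPM in the 3 knockdowns in the same order. The sum of 7 Schwann cell markers was 1.93 to 1.96 CPM in siCtrl, 3.11 to 3.73 in siMYCN, 2.47 to 2.69 in siHAND2 and 2.93 to 3.76 in the combined knockdown, and that of 4 endothelial markers 0.61 to 0.89, 2.09 to 2.88, 0.95 to 1.45 and 1.19 to 1.95 CPM. Both sums lay above all siCtrl samples in every knockdown sample. The endothelial genes did not rise together. CDH5 had a mean of 0.490 CPM in siCtrl and 1.40, 1.12 and 1.38 in the 3 knockdowns. VWF stood at 545%, 28.8% and 86.4% of its siCtrl mean and KDR at 87.1%, 24.7% and 12.2%, both under 1 CPM on average. PECAM1 stayed at or near 0 throughout. The sum of 6 immune markers lay between 0.58 and 1.22 CPM. The sum of 10 mesenchymal markers was 330 to 351 CPM in siCtrl, 296 to 344 in siMYCN, 164 to 192 in siHAND2 and 108 to 180 in the combined knockdown, with VIM, the intermediate filament gene, the main contributor and PRRX1 at 0 throughout. In bulk RNA, fewer cells of a type and less RNA per cell cannot be told apart, and the part of these marker changes in the channel results was not tested.

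More of the tested channel genes were called higher than lower in each knockdown. Of the 62 members that passed this limit, 31 rose and 8 fell in siMYCN, against 17.4% of all tested genes higher and 16.3% lower. In siHAND2 26 rose and 11 fell, where 12.3% of all tested genes were higher and 30.4% lower. In the combined knockdown 28 rose and 17 fell, where 17.4% were higher and 50.1% lower. After rescaling the numbers higher and lower were 32 and 9 in siMYCN, 34 and 9 in siHAND2 and 40 and 14 in the combined knockdown, against 25.4% higher and 22.5% lower, 25.9% and 24.9%, and 37.7% and 33.0% of all tested genes. The median log2 change of the 62 was 0.34, 0.26 and 0.25 in the 3 knockdowns as deposited, and 0.34, 0.36 and 0.54 after rescaling. The 3 comparisons share the siCtrl samples, so they are not independent of each other. Counts per class below are to be read against these shares of all tested genes. Because 8 of the 62 had a siCtrl mean under 1 CPM and entered through their level in a knockdown, the 62 are not a sample of all channel genes, and these counts and medians describe them without supporting a statement about the family.

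**Figure D1:**
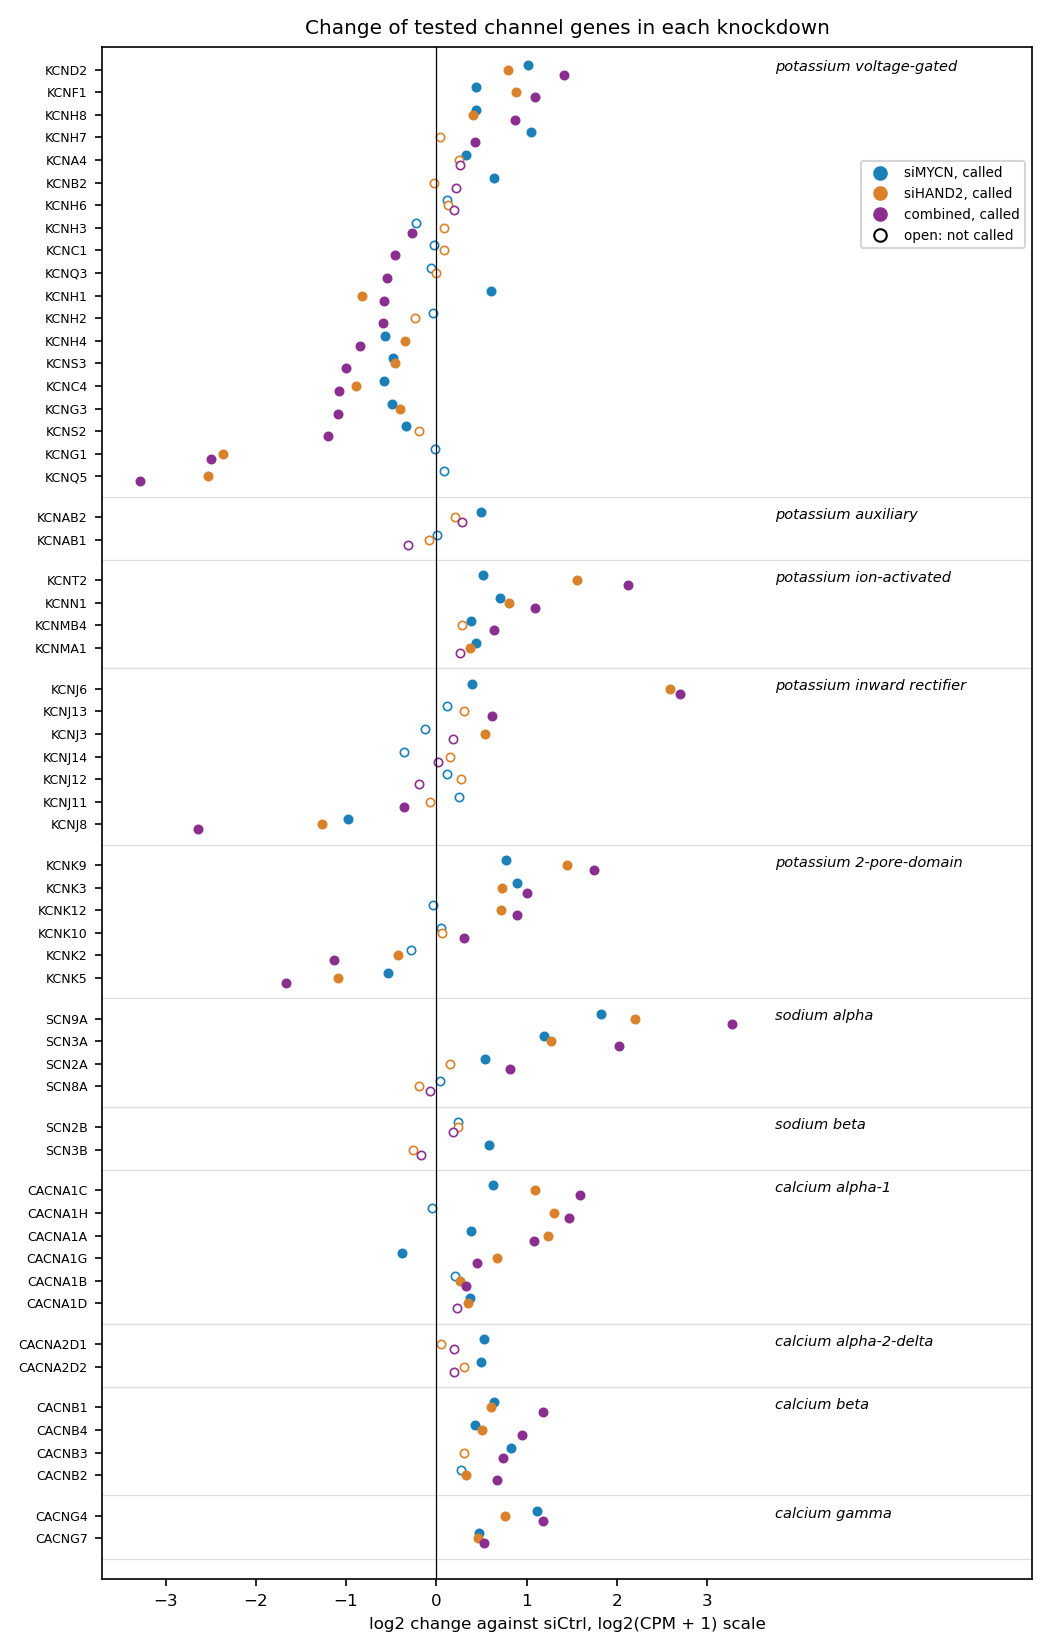
Log2 change against siCtrl of 58 of the tested channel genes in siMYCN (blue), siHAND2 (orange) and the combined knockdown (purple), on the log2(CPM + 1) scale and grouped by class, with filled points called and open points not called. Among the genes drawn SCN9A lies farthest right at 3.28 and KCNQ5 farthest left at -3.28, both in the combined knockdown.

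**Figure D2:**
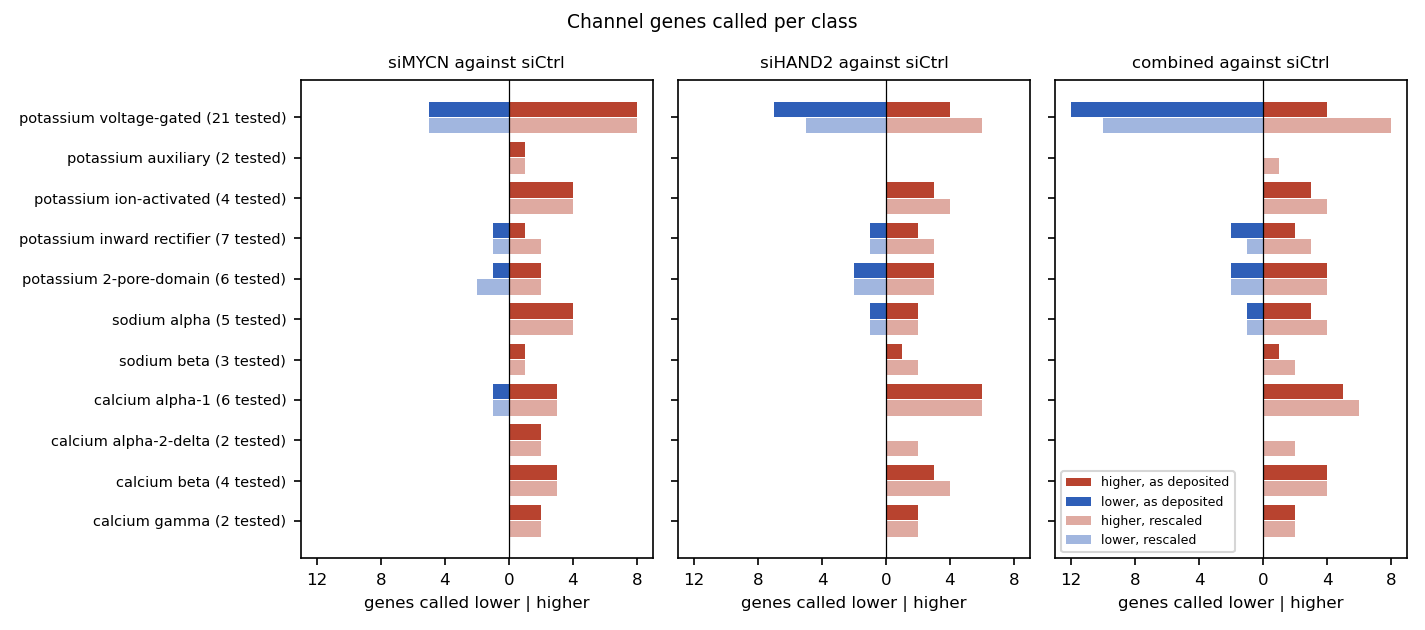
Number of tested channel genes called lower (left, blue) and higher (right, red) in each class and knockdown, with full colour for the deposited CPM and pale colour for the rescaled CPM. The voltage-gated potassium class, the largest with 21 tested genes, is the class with the most falls in each knockdown, 12 in the combined knockdown as deposited and 10 after rescaling.

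The windows upstream of the genes with the 2 largest rises and 2 largest falls of log2(CPM + 1) in the combined knockdown among those with an entry in the RefSeq table are shown because MYCN and HAND2 both bind E-boxes, whose general form is CANNTG. Each is the 250 bases before the RefSeq gene start on the gene's own strand, 5′ to 3′, in the GRCh38.p14 build, whereas the positions in the deposited table are in hg19. The capitals mark CANNTG, which reads the same form on both strands.
SCN9A, minus strand, chr2:166375945-166376194: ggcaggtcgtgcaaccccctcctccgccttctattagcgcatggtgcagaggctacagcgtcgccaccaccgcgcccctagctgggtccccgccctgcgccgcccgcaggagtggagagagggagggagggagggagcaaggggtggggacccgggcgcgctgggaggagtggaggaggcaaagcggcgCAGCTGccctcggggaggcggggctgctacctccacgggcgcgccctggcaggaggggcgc
KCNJ6, minus strand, chr21:37916458-37916707: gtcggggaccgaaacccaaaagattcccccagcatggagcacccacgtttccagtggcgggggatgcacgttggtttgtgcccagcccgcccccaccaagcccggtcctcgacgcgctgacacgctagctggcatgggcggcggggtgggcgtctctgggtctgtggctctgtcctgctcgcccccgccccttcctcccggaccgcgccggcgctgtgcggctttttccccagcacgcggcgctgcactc
KCNQ5, plus strand, chr6:72621814-72622063: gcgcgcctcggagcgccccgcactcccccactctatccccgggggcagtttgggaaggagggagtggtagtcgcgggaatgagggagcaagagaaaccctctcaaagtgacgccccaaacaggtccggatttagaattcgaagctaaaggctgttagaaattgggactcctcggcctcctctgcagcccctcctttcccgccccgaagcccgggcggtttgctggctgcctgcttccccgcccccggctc
KCNJ8, minus strand, chr12:21774707-21774956: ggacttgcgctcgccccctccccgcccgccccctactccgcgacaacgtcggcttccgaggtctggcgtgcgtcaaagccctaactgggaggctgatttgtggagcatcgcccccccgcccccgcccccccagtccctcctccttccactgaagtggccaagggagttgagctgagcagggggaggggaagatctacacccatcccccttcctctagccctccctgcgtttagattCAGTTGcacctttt
SCN9A held the word CAGCTG, KCNJ8 held CAGTTG, and KCNJ6 and KCNQ5 held no CANNTG in these windows. CANNTG stood in 61.8% of all 35116 RefSeq windows and in 33 of the 69 windows (47.8%) of the 41 tested channel genes with an entry. CACGTG, the form of CANNTG that MYCN binds with MAX, stood in 6.34% of all windows and 8.70% of those of the channel genes. CAGATG or its reverse complement CATCTG, another form of CANNTG, stood in 12.2% and 10.1%. Among the windows of channel genes that rose in the combined knockdown 56.7% of 30 held CANNTG, and among those that fell 44.4% of 18 did. These matches are a description of the letters in the windows, and the neighbouring regions were not searched.

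Sodium channel alpha subunits, which form the pore, held the largest rise of the 62 members on the log2(CPM + 1) scale, that of SCN9A, whereas by the ratio of mean CPM to siCtrl the inward rectifier gene KCNJ6 stood higher (14.1 against 13.7 in the combined knockdown). In siMYCN 4 of the 5 tested alpha subunits rose, in siHAND2 2 rose and 1 fell, and in the combined knockdown 3 rose and 1 fell (4 and 1 after rescaling). SCN9A encodes the sodium channel of nociceptive and sympathetic neurons. Its CPM was 1.97, 2.70 and 1.84 in the siCtrl samples, 9.58, 10.8 and 10.2 in siMYCN, 13.4, 13.8 and 13.2 in siHAND2 and 30.1, 33.1 and 25.9 in the combined knockdown. No 2 groups overlapped, and the group means rose 4.69, 6.20 and 13.7-fold over siCtrl. The log2 changes were 1.82 ± 0.12, 2.20 ± 0.12 and 3.28 ± 0.12 (SE; limma adjusted p = 3.6e-11, 1.4e-13 and 3.4e-17). SCN9A is overlapped on the other strand by the listed transcript LOC101929680, and without stated strand use reads of the pair cannot be told apart.

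SCN3A encodes a sodium channel best known from the embryonic brain. It stood at 16.9, 16.9 and 16.6 CPM in siCtrl, 39.5, 41.3 and 38.5 in siMYCN, 40.1, 42.3 and 43.6 in siHAND2 and 78.7, 74.1 and 63.02 in the combined knockdown. The single knockdowns overlapped each other, and every combined sample lay above them. The log2 changes against siCtrl were 1.20 ± 0.11, 1.27 ± 0.11 and 2.03 ± 0.11 (limma adjusted p = 8.0e-09, 8.8e-10 and 3.5e-14). SCN2A, a sodium channel of central axons, rose in siMYCN by 0.54 ± 0.13 and in the combined knockdown by 0.82 ± 0.13, and was not called in siHAND2 (0.15 ± 0.13, limma adjusted p = 0.36). SCN8A, the channel of mature nodes and axon initial segments, was not called in any knockdown as deposited, and its log2 change in the combined knockdown was -0.07 ± 0.11 (limma adjusted p = 0.61), against 0.28 after rescaling (limma adjusted p = 0.045).

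The sodium channel beta subunits are single-pass membrane proteins that modulate the alpha subunits. SCN3B, the highest of the beta subunits per length at 3.68 CPM per kilobase of canonical transcript in siCtrl, stood at 24.3, 23.2 and 15.3 CPM in siCtrl and 34.5, 32.2 and 27.5 in siMYCN, a log2 change of 0.58 ± 0.18 (limma adjusted p = 0.014). Its siHAND2 values were 22.9, 16.2 and 13.1 and its combined values 16.5, 24.5 and 14.8, neither of them called against siCtrl. The siCtrl and knockdown samples of SCN3B spread widely, and its rise in siMYCN was not called without siCtrl replicate 3 (log2 change 0.38) or without siMYCN replicate 1 (0.52).

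**Figure D3:**
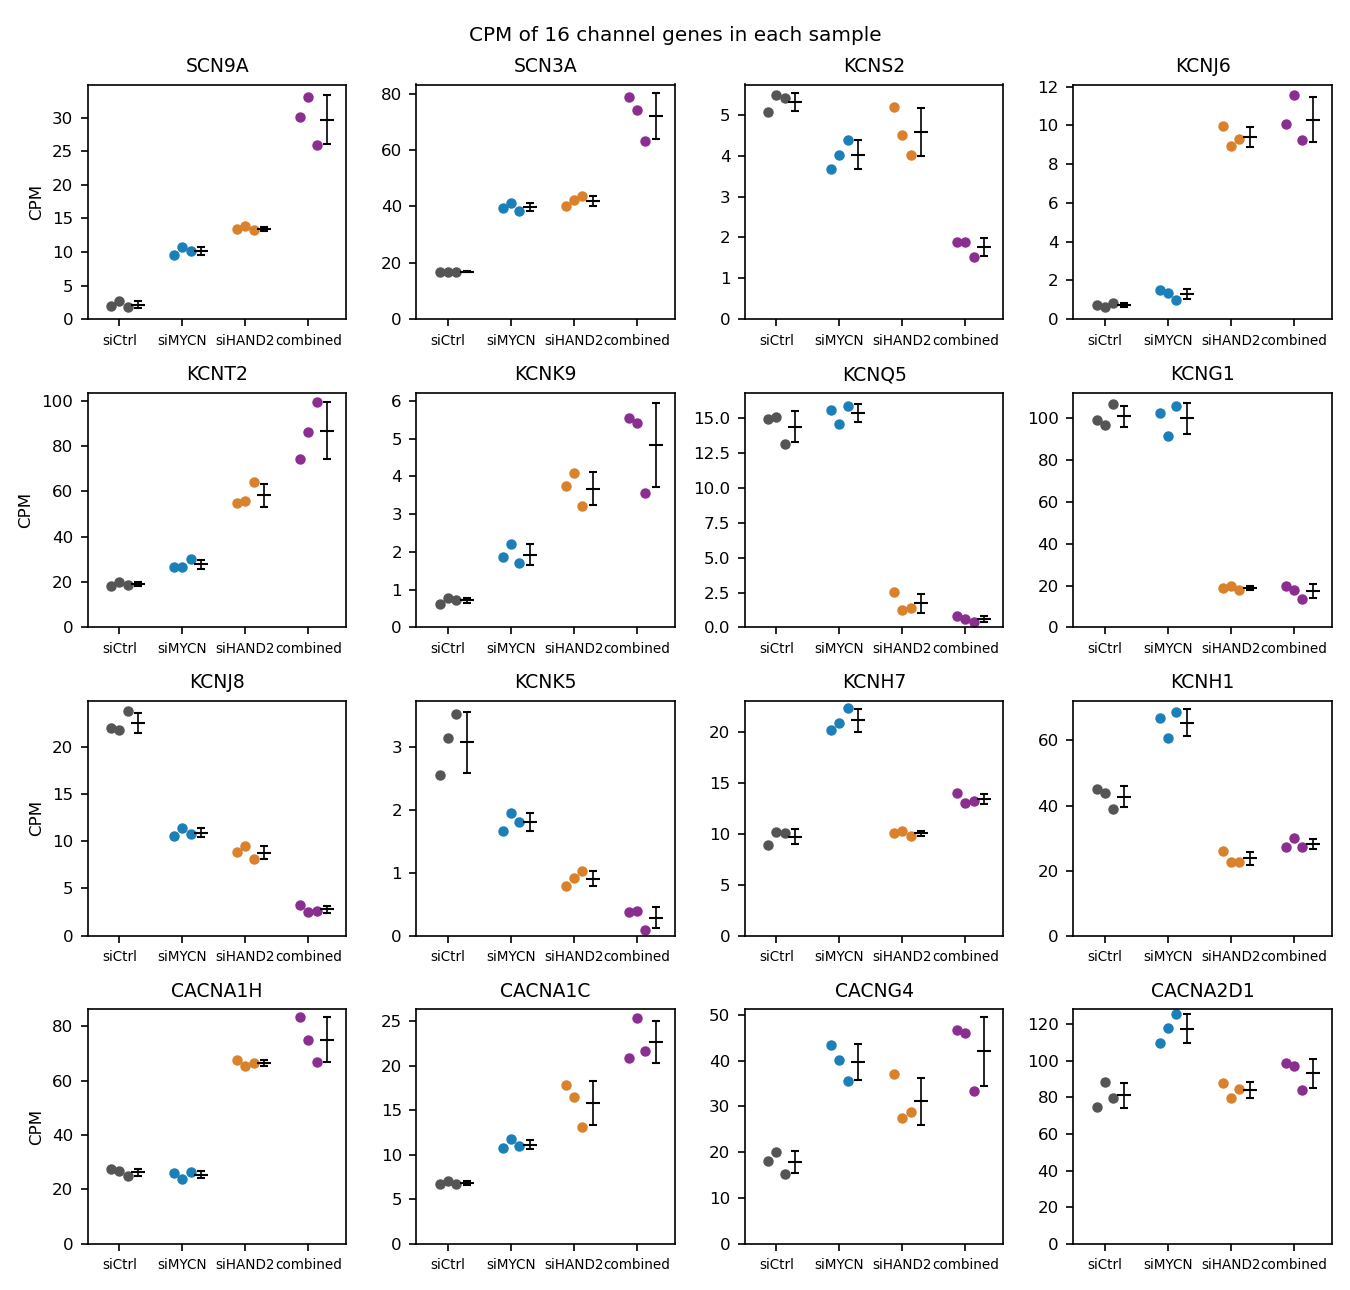
CPM of 16 channel genes in each sample (coloured points, 3 per group) with the group mean and SD (black) on linear axes that start at 0. SCN9A, SCN3A and KCNT2 are highest in the combined knockdown, KCNQ5 and KCNG1 fall in siHAND2 and the combined knockdown, and KCNH7 and KCNH1 are highest in siMYCN.

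Voltage-gated potassium subunits divided between rises and falls. They held most of the falls, and with 21 of the 62 tested members they were also the largest class. Of 21 tested, 8 rose and 5 fell in siMYCN (the same numbers after rescaling), 4 rose and 7 fell in siHAND2 (6 and 5), and 4 rose and 12 fell in the combined knockdown (8 and 10). Of all tested genes 16.3%, 30.4% and 50.1% were lower in the 3 knockdowns as deposited, and 22.5%, 24.9% and 33.0% after rescaling. The falls of the class in siHAND2 lay near these shares. Its median log2 change in the combined knockdown was -0.45, whereas that of all tested genes was -0.28, and after rescaling the medians were -0.14 and 0.04.

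The KCNQ genes encode the subunits of the M-current, a slowly activating potassium current that restrains repetitive firing. KCNQ5 stood at 14.95, 15.1 and 13.1 CPM in siCtrl, 15.6, 14.6 and 15.9 in siMYCN, 2.53, 1.24 and 1.38 in siHAND2 and 0.795, 0.570 and 0.390 in the combined knockdown. The siMYCN samples overlapped siCtrl, and all siHAND2 and combined samples lay far below both, with the combined samples the lowest. The mean was 8.38 times lower than siCtrl in siHAND2 and 24.6 times lower in the combined knockdown, with log2 changes of -2.53 ± 0.14 and -3.28 ± 0.14 (limma adjusted p = 2.8e-13 and 1.1e-15). In siMYCN the log2 change was 0.09 ± 0.14 (limma adjusted p = 0.66). The listed transcripts KCNQ5-IT1 on the same strand and KCNQ5-AS1 and MIR4282 on the other overlap KCNQ5. KCNQ3 was called in the combined knockdown and not in the single ones, and there it fell by 0.54 on the log2 scale (limma adjusted p = 3.9e-04).

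The KCNF, KCNG and KCNS genes encode silent subunits, which form no channel alone and alter KCNB channels when they join them. KCNG1 was the highest member per length in siCtrl at 46.1 CPM per kilobase, and 7.86 in the combined knockdown. Its CPM was 99.4, 96.7 and 107 in siCtrl, 103, 91.5 and 106 in siMYCN, 18.96, 19.6 and 18.1 in siHAND2 and 20.04, 18.1 and 13.5 in the combined knockdown. As for KCNQ5, siCtrl and siMYCN overlapped and both groups with the HAND2 siRNA lay far below them. The log2 changes were -0.01 ± 0.12 in siMYCN (limma adjusted p = 0.94), -2.36 ± 0.12 in siHAND2 (9.9e-14) and -2.50 ± 0.12 in the combined knockdown (7.8e-15). For KCNG1 the combined knockdown was not called against siHAND2 (-0.14 ± 0.12, limma adjusted p = 0.37), whereas KCNQ5 was lower by 0.75 (1.5e-04). Over the 12 samples KCNG1 was the member most like KCNQ5, with a Pearson r of log2(CPM + 1) of 0.983, followed by KCNK5 at 0.908 and KCNH1 at 0.872. These correlations describe 12 samples in 4 groups and share the libraries and their scaling.

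Of the other 4 tested silent subunits, KCNF1 rose and the rest fell in the combined knockdown. KCNG3 stood at 2.84, 3.24 and 3.33 CPM in siCtrl and 0.733, 1.11 and 0.99951 in the combined knockdown, a log2 change of -1.09 ± 0.14 (limma adjusted p = 3.4e-07). It fell by 0.49 in siMYCN and by 0.40 in siHAND2, where the call was lost after rescaling (-0.28, limma adjusted p = 0.15), without siHAND2 replicate 2 or 3 and without siCtrl replicate 2 or 3. KCNS3 stood at 3.47, 2.78 and 3.17 CPM in siCtrl, 1.85, 2.54 and 1.55 in siMYCN, 2.06, 1.82 and 2.14 in siHAND2 and 1.12, 1.01 and 1.05 in the combined knockdown, and each knockdown lay wholly below siCtrl. KCNS2 stood at 5.07, 5.48 and 5.42 CPM in siCtrl, 3.67, 4.03 and 4.38 in siMYCN, 5.19, 4.50 and 4.02 in siHAND2 and 1.89, 1.89 and 1.51 in the combined knockdown. Its fall was 0.33 in siMYCN (limma adjusted p = 0.029) and 1.20 in the combined knockdown (1.7e-09), and its change in siHAND2 was -0.19 ± 0.12 (limma adjusted p = 0.20), not called. KCNF1 rose in all 3 knockdowns, by 0.43 ± 0.14, 0.89 ± 0.14 and 1.10 ± 0.14.

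KCNB2 encodes a delayed rectifier pore that the silent subunits join. KCNB2 stood at 15.3 CPM per kilobase in siCtrl, next to KCNG1 in this order, and rose in siMYCN by 0.64 ± 0.11. In the combined knockdown its change of 0.22 ± 0.11 was not called as deposited (limma adjusted p = 0.072) and was called at 0.57 after rescaling.

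The KCNH genes encode the ether-a-go-go, ERG and ELK channels, of which ERG currents help to set the resting potential in neuroblastoma cells. KCNH1, the ether-a-go-go gene, moved in opposite directions in the single knockdowns. Its CPM was 45.2, 43.9 and 39.1 in siCtrl, 67.04, 60.7 and 68.7 in siMYCN, 25.98, 22.7 and 22.6 in siHAND2 and 27.3, 30.03 and 27.2 in the combined knockdown. All siMYCN samples lay above siCtrl and all siHAND2 and combined samples below it. The log2 changes were 0.61 ± 0.11, -0.82 ± 0.11 and -0.58 ± 0.11 (limma adjusted p = 1.3e-04, 1.4e-06 and 4.9e-05). The last was -0.23 on the rescaled CPM (0.044).

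Of the ERG genes, KCNH7 rose and KCNH2 fell in the combined knockdown. KCNH7 stood at 8.92, 10.2 and 10.1 CPM in siCtrl, 20.2, 20.9 and 22.4 in siMYCN, 10.1, 10.3 and 9.83 in siHAND2 and 13.995, 13.03 and 13.3 in the combined knockdown. It rose in siMYCN by 1.05 ± 0.10 (limma adjusted p = 2.8e-08) and in the combined knockdown by 0.43 ± 0.10 (7.9e-04), and its siHAND2 and siCtrl samples overlapped (0.04 ± 0.10, 0.76). KCNH2, the ERG gene of the cardiac rapid delayed rectifier, fell in the combined knockdown by 0.59 as deposited (1.2e-04) and 0.25 after rescaling (0.0013). KCNH6 was called on the rescaled CPM alone, higher in siHAND2 (0.25) and in the combined knockdown (0.48). Of the ELK genes KCNH8 rose in all 3 knockdowns (0.43 ± 0.12, 0.41 ± 0.12 and 0.87 ± 0.12). KCNH4 stood at 1.84, 1.71 and 1.60 CPM in siCtrl, 1.03, 0.791 and 0.706 in siMYCN, 1.33, 0.795 and 1.33 in siHAND2 and 0.670, 0.441 and 0.439 in the combined knockdown, falling by 0.57, 0.35 and 0.85. Its siHAND2 call was lost after rescaling (-0.25, limma adjusted p = 0.11), with a pseudocount of 0.1, and without any 1 siCtrl sample or siHAND2 replicate 2. KCNH3, the remaining ELK gene, fell by 0.27 in the combined knockdown as deposited and was at 0.00 after rescaling, where it was not called.

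Of the Shal and Shaw types, KCND2 rose and KCNC4 fell in each knockdown. KCND2, a Shal subunit of the transient A-type current below firing threshold, stood at 0.909, 1.55 and 0.959 CPM in siCtrl, 2.82, 3.53 and 3.53 in siMYCN, 2.15, 2.83 and 3.14 in siHAND2 and 4.91, 4.69 and 4.41 in the combined knockdown. The 3 knockdowns lay wholly above the controls, with log2 changes of 1.01 ± 0.13, 0.80 ± 0.13 and 1.42 ± 0.13 (limma adjusted p = 2.2e-06, 3.0e-05 and 8.7e-10). KCNC4, a Shaw subunit, went the other way, with 3.08, 3.04 and 2.96 CPM in siCtrl, 1.79, 1.46 and 1.86 in siMYCN, 1.52, 1.24 and 0.810 in siHAND2 and 0.873, 1.19 and 0.683 in the combined knockdown. Its log2 changes were -0.58 ± 0.14, -0.89 ± 0.14 and -1.08 ± 0.14 (limma adjusted p = 0.0017, 7.8e-06 and 1.2e-07). KCNC1, the Shaw subunit of fast-spiking neurons, fell in the combined knockdown by 0.45 as deposited and was not called after rescaling (-0.14, limma adjusted p = 0.55). KCNA4, a Shaker A-type subunit, rose in siMYCN by 0.33 ± 0.12. Of the cytoplasmic beta subunits of Shaker channels, KCNAB2 rose in siMYCN by 0.49 ± 0.13. The other, KCNAB1, stood at 2.07, 3.36 and 2.28 CPM in siCtrl, 1.95, 3.19 and 2.64 in siMYCN, 2.28, 2.53 and 2.17 in siHAND2 and 1.71, 1.87 and 1.95 in the combined knockdown, and was not called against siCtrl in any of them.

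The 4 tested genes of channels gated by intracellular calcium or sodium were all higher in siMYCN, 3 of them also in siHAND2 and 3 in the combined knockdown, and all 4 were higher in each knockdown after rescaling. KCNT2 encodes a sodium-activated potassium channel. Its CPM was 18.4, 19.9 and 18.9 in siCtrl, 26.4, 26.7 and 30.2 in siMYCN, 55.1, 55.6 and 64.0 in siHAND2 and 74.4, 86.3 and 99.5 in the combined knockdown. The groups did not overlap, and the log2 changes were 0.52 ± 0.12, 1.56 ± 0.12 and 2.12 ± 0.12 (limma adjusted p = 0.0012, 9.3e-11 and 6.2e-14). The listed genes FAM72C and MIR4735 overlap KCNT2 on the same strand and SRGAP2D and MIR5096 on the other, so its value may hold reads of theirs. KCNN1, a small-conductance calcium-activated channel that carries afterhyperpolarisation, rose by 0.70 ± 0.13, 0.81 ± 0.13 and 1.09 ± 0.13. KCNMA1, the pore of the large-conductance calcium-activated channel, rose by 0.44 ± 0.14 in siMYCN and 0.37 ± 0.14 in siHAND2. KCNMB4, the neuronal beta subunit of that channel, rose by 0.38 ± 0.13 in siMYCN and 0.64 ± 0.13 in the combined knockdown.

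Among the inward rectifiers, which pass potassium more easily into the cell than out, the members with the largest changes went in opposite directions. Of 7 tested, 1 rose and 1 fell in siMYCN (2 and 1 after rescaling), 2 rose and 1 fell in siHAND2 (3 and 1), and 2 rose and 2 fell in the combined knockdown (3 and 1). KCNJ6 and KCNJ13 had siCtrl means of 0.732 and 0.859 CPM and passed the limit of 1 CPM through their level in the knockdowns. The counts of rises are therefore partly set by the filter. KCNJ6, a subunit of the G-protein-gated inward rectifier that transmitters open through their receptors, stood at 0.744, 0.616 and 0.837 CPM in siCtrl, 1.504, 1.36 and 1.01 in siMYCN, 9.94, 8.95 and 9.29 in siHAND2 and 10.1, 11.6 and 9.24 in the combined knockdown. The siHAND2 and combined samples overlapped each other and lay far above the other groups, 12.8-fold and 14.1-fold over the siCtrl mean, while siMYCN was 1.76-fold higher. The log2 changes were 0.40 ± 0.12, 2.58 ± 0.12 and 2.70 ± 0.12 (limma adjusted p = 0.011, 1.4e-14 and 1.4e-15), and the siMYCN call was lost without siCtrl replicate 2 (0.35) or siMYCN replicate 1 (0.33). KCNJ3, the usual partner of KCNJ6 in that channel, rose in siHAND2 by 0.54 ± 0.12 (limma adjusted p = 6.3e-04). In the combined knockdown the deposited values gave no call (0.19 ± 0.12, limma adjusted p = 0.16) and the rescaled values a rise (0.43, 6.9e-04).

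KCNJ8 encodes a pore subunit of the ATP-sensitive potassium channel, which couples metabolism to the membrane potential. It stood at 21.97, 21.8 and 23.8 CPM in siCtrl, 10.6, 11.4 and 10.7 in siMYCN, 8.86, 9.45 and 8.07 in siHAND2 and 3.23, 2.51 and 2.63 in the combined knockdown. No 2 groups overlapped, and the combined samples were the lowest, 8.06 times below the siCtrl mean. The log2 changes were -0.98 ± 0.11, -1.26 ± 0.11 and -2.64 ± 0.11 (limma adjusted p = 1.6e-07, 1.1e-09 and 5.4e-16). KCNJ11, the other pore subunit of that channel type, fell in the combined knockdown by 0.36 as deposited (limma adjusted p = 0.014) and was not called there after rescaling (-0.12, 0.28). KCNJ13 rose in the combined knockdown by 0.62 ± 0.16. KCNJ12 shares most of its sequence and its listed position with KCNJ18, so its value is uncertain, and neither it nor KCNJ14 was called against siCtrl as deposited.

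Potassium channels with 2 pore domains carry background currents that hold the resting potential. Of 6 tested, 2 rose and 1 fell in siMYCN (2 and 2 after rescaling), 3 rose and 2 fell in siHAND2, and 4 rose and 2 fell in the combined knockdown, the same numbers as after rescaling for the last 2. KCNK9 and KCNK3 encode the acid-sensitive TASK channels. KCNK9 had a siCtrl mean of 0.714 CPM and passed the limit of 1 CPM through its level in the knockdowns. The counts of rises in this class are therefore partly set by the filter. KCNK9 stood at 0.633, 0.776 and 0.732 CPM in siCtrl, 1.87, 2.22 and 1.69 in siMYCN, 3.73, 4.09 and 3.21 in siHAND2 and 5.55, 5.42 and 3.56 in the combined knockdown, with log2 changes of 0.77 ± 0.14, 1.45 ± 0.14 and 1.75 ± 0.14 (limma adjusted p = 9.1e-05, 4.6e-09 and 2.4e-11). KCNK3 stood at 22.1, 18.9 and 21.2 CPM in siCtrl, 42.1, 37.1 and 38.9 in siMYCN, 38.8, 34.1 and 31.9 in siHAND2 and 51.7, 43.7 and 33.7 in the combined knockdown. Each knockdown of both TASK genes lay wholly above siCtrl, and the KCNK3 changes were 0.89 ± 0.13, 0.72 ± 0.13 and 1.00 ± 0.13.

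KCNK5, an alkaline-activated member, and KCNK2, a mechanically gated member, were the tested 2-pore-domain genes called lower. KCNK1 was under the limit and not tested, and its mean was 0.692 CPM in siCtrl and 0.328, 0.345 and 0.223 in the 3 knockdowns. KCNK5 stood at 2.56, 3.15 and 3.52 CPM in siCtrl, 1.66, 1.95 and 1.81 in siMYCN, 0.791, 0.912 and 1.02 in siHAND2 and 0.374, 0.389 and 0.0976 in the combined knockdown. No 2 groups overlapped, and the log2 changes were -0.53 ± 0.13, -1.09 ± 0.13 and -1.67 ± 0.13 (limma adjusted p = 0.0026, 2.8e-07 and 3.1e-11). KCNK2 stood at 19.1, 17.8 and 16.7 CPM in siCtrl, 14.8, 14.4 and 14.2 in siMYCN, 15.1, 12.3 and 11.9 in siHAND2 and 8.87, 7.72 and 6.36 in the combined knockdown. It fell by 0.42 in siHAND2 and 1.13 in the combined knockdown. In siMYCN its change of -0.28 ± 0.12 was not called (limma adjusted p = 0.067), although all siMYCN samples lay below siCtrl. It was called with replicate number as a block (0.032) and after rescaling (0.0077). KCNK12 rose in siHAND2 by 0.72 ± 0.14 and in the combined knockdown by 0.90 ± 0.14, and KCNK10, a relative of KCNK2, rose in the combined knockdown by 0.30 ± 0.13 (limma adjusted p = 0.049).

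All 6 tested calcium channel alpha-1 subunits, the pores, rose in siHAND2 on both scales, where 12.3% of all tested genes were higher (25.9% after rescaling). CACNA1A and CACNA1G had siCtrl means of 0.794 and 0.879 CPM and passed the limit of 1 CPM through their level in the knockdowns. The count is therefore partly set by the filter and describes the tested genes only. In the combined knockdown 5 rose (6 after rescaling), and in siMYCN 3 rose and 1 fell. CACNA1H, a T-type channel that opens near the resting potential, stood at 27.4, 26.6 and 24.9 CPM in siCtrl, 26.1, 23.96 and 26.4 in siMYCN, 67.7, 65.5 and 66.6 in siHAND2 and 83.2, 75.1 and 66.7 in the combined knockdown. Its siMYCN and siCtrl samples overlapped (-0.05 ± 0.11, limma adjusted p = 0.78), and it rose by 1.31 ± 0.11 in siHAND2 (6.2e-10) and 1.47 ± 0.11 in the combined knockdown (1.2e-11). TPSG1 overlaps CACNA1H on the other strand. CACNA1C, the L-type channel of heart and neurons, stood at 6.68, 7.12 and 6.71 CPM in siCtrl, 10.8, 11.7 and 10.96 in siMYCN, 17.9, 16.5 and 13.1 in siHAND2 and 20.9, 25.4 and 21.7 in the combined knockdown. No 2 groups overlapped, and the log2 changes were 0.63 ± 0.12, 1.09 ± 0.12 and 1.59 ± 0.12 (limma adjusted p = 1.5e-04, 4.4e-08 and 9.4e-12). The listed antisense transcripts CACNA1C-AS1, CACNA1C-AS2 and CACNA1C-AS4 lie on the strand opposite to CACNA1C.

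CACNA1G, another T-type gene, was called in opposite directions in the single knockdowns at a low level. It stood at 0.826, 1.10 and 0.715 CPM in siCtrl, 0.343, 0.544 and 0.447 in siMYCN, 2.22, 1.62 and 2.19 in siHAND2 and 1.64, 1.63 and 1.41 in the combined knockdown. It fell by 0.38 in siMYCN (limma adjusted p = 0.026) and rose by 0.68 ± 0.13 in siHAND2 (1.4e-04), with 0.45 ± 0.13 in the combined knockdown (0.0034). Its fall in siMYCN was not called without siCtrl replicate 1 or 2 or without siMYCN replicate 1 or 3, with log2 changes between -0.39 and -0.30. CACNA1A, the P/Q-type channel of presynaptic terminals, rose by 0.39 ± 0.14, 1.24 ± 0.14 and 1.08 ± 0.14, the first not called after rescaling (limma adjusted p = 0.057). CACNA1B, the N-type channel typical of sympathetic neurons, rose by 0.27 ± 0.10 in siHAND2 and 0.32 ± 0.10 in the combined knockdown. CACNA1D, an L-type channel, rose by 0.38 ± 0.13 in siMYCN and 0.36 ± 0.13 in siHAND2.

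No tested auxiliary calcium channel subunit was called lower than siCtrl in any knockdown. The beta subunits bind the alpha-1 subunit in the cytoplasm and carry it to the surface, and of 4 tested siMYCN raised 3, siHAND2 3 and the combined knockdown 4 (3, 4 and 4 after rescaling). CACNB3 stood at 17.2, 16.6 and 16.5 CPM in siCtrl, 31.2, 30.8 and 29.9 in siMYCN, 22.7, 21.4 and 19.1 in siHAND2 and 36.4, 29.5 and 21.8 in the combined knockdown. It rose by 0.83 ± 0.13 in siMYCN (limma adjusted p = 2.6e-05) and 0.74 ± 0.13 in the combined knockdown (2.5e-05), and its change of 0.31 ± 0.13 in siHAND2 (0.061) was called after rescaling alone. CACNB1 rose by 0.64 ± 0.14, 0.61 ± 0.14 and 1.18 ± 0.14, CACNB4 by 0.43 ± 0.12, 0.51 ± 0.12 and 0.95 ± 0.12, and CACNB2 by 0.33 ± 0.13 in siHAND2, with 0.67 ± 0.13 in the combined knockdown.

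The alpha-2-delta subunits, extracellular proteins that raise the surface density of calcium channels and bind gabapentin, rose in siMYCN. CACNA2D1 stood at 74.9, 88.5 and 79.6 CPM in siCtrl, 109, 118 and 125 in siMYCN, 87.95, 79.5 and 84.4 in siHAND2 and 98.5, 96.9 and 84.05 in the combined knockdown. Its siMYCN samples lay above all siCtrl samples (0.53 ± 0.11, limma adjusted p = 6.7e-04). CACNA2D2 rose in siMYCN by 0.49 ± 0.14, and neither gene was called in siHAND2 or the combined knockdown as deposited, while both were called higher there after rescaling. CACNG4 and CACNG7, named as gamma subunits but best known as auxiliary subunits of AMPA-type glutamate receptors, rose in all 3 knockdowns on both scales. CACNG4 stood at 18.2, 20.1 and 15.4 CPM in siCtrl, 43.4, 40.04 and 35.6 in siMYCN, 36.997, 27.5 and 28.7 in siHAND2 and 46.7, 45.9 and 33.4 in the combined knockdown, with log2 changes of 1.11 ± 0.14, 0.76 ± 0.14 and 1.18 ± 0.14. The CACNG7 changes were 0.47 ± 0.14, 0.47 ± 0.14 and 0.53 ± 0.14.

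The combined knockdown was compared with each single knockdown to ask what the second siRNA added. Against siMYCN, 21 members were higher and 22 lower, where 8.92% of all tested genes were higher and 50.0% lower, and after rescaling 31 were higher and 14 lower (30.0% and 26.6% of all). Against siHAND2, 14 were higher and 14 lower, where 8.75% of all were higher and 31.5% lower, and after rescaling 29 and 11 (26.1% and 23.6%). SCN9A was higher in the combined knockdown than in siMYCN by 1.45 ± 0.12 (limma adjusted p = 1.4e-10) and than in siHAND2 by 1.08 ± 0.12 (2.1e-07). KCNJ8 was lower than in siMYCN by 1.66 (4.1e-12) and than in siHAND2 by 1.37 (2.6e-09). On the log2(CPM + 1) scale these were the largest rise and the largest fall among the members against siHAND2. KCNJ6, by contrast, was higher than in siMYCN by 2.30 ± 0.12 and not called against siHAND2 as deposited (0.12 ± 0.12, limma adjusted p = 0.46), with 0.30 after rescaling (0.034).

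Compared with each other, the single knockdowns differed in 28 members, 14 higher in siMYCN and 14 higher in siHAND2, where 26.1% of all tested genes were higher in siMYCN and 8.98% in siHAND2. After rescaling 11 members were higher in siMYCN and 19 in siHAND2 (22.4% and 22.2% of all). Among the largest differences were KCNQ5 (2.62 ± 0.14) and KCNG1 (2.34 ± 0.12) on the side of siMYCN, and KCNJ6 (-2.19 ± 0.12) and CACNA1H (-1.35 ± 0.11) on the side of siHAND2. CACNG4 was higher in siMYCN with replicate number as a block and not without it (0.35 ± 0.14; limma adjusted p = 0.051 without and 0.010 with the block).

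The interaction coefficient, combined minus siMYCN minus siHAND2 plus siCtrl, measures on the log2(CPM + 1) scale how far the combined change departs from the sum of the single changes. It was called in 6 members, all below 0, where 4.01% of all tested genes were called. Among all genes called, 463 lay below 0 and 45 above it, so most called genes at large shared this direction. Among the 6 were KCNQ5 (-0.84 ± 0.20, limma adjusted p = 0.015), SCN9A (-0.75 ± 0.17, 0.010), CACNG4 (-0.69 ± 0.20, 0.043), KCNS2 (-0.68 ± 0.16, 0.018) and KCNH7 (-0.66 ± 0.15, 0.0093). A coefficient below 0 described different patterns: SCN9A and CACNG4 rose in the combined knockdown by less than the sum, KCNH7 rose in siMYCN and stood lower in the combined knockdown than in siMYCN, and KCNQ5 and KCNS2 fell further than the sum. The median coefficient of all tested genes was -0.18 as deposited and -0.01 after rescaling. After rescaling 9 members were called, 8 below 0 and CACNA1H above it (0.40). On that scale 6.14% of all tested genes were called, 567 below 0 and 212 above it. KCNQ5, SCN9A, KCNS2 and KCNH7 were called on both scales, and CACNG4 was not called after rescaling (-0.50, 0.065). Without combined replicate 1, 23 members were called, where 35.0% of all tested genes were, so the higher count was shared by genes at large. Without any other sample 4 to 8 members were called, where 2.07 to 5.58% of all were, with the lowest count of 4 without siMYCN replicate 2 or siHAND2 replicate 1. With replicate number as a block 12 members were called in the interaction, where 10.1% of all tested genes were. In the other comparisons, in the order given above, the block called 41, 39, 49, 44, 31 and 29 members, where 38.8%, 48.4%, 70.6%, 63.6%, 46.0% and 40.7% of all were called.

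**Figure D4:**
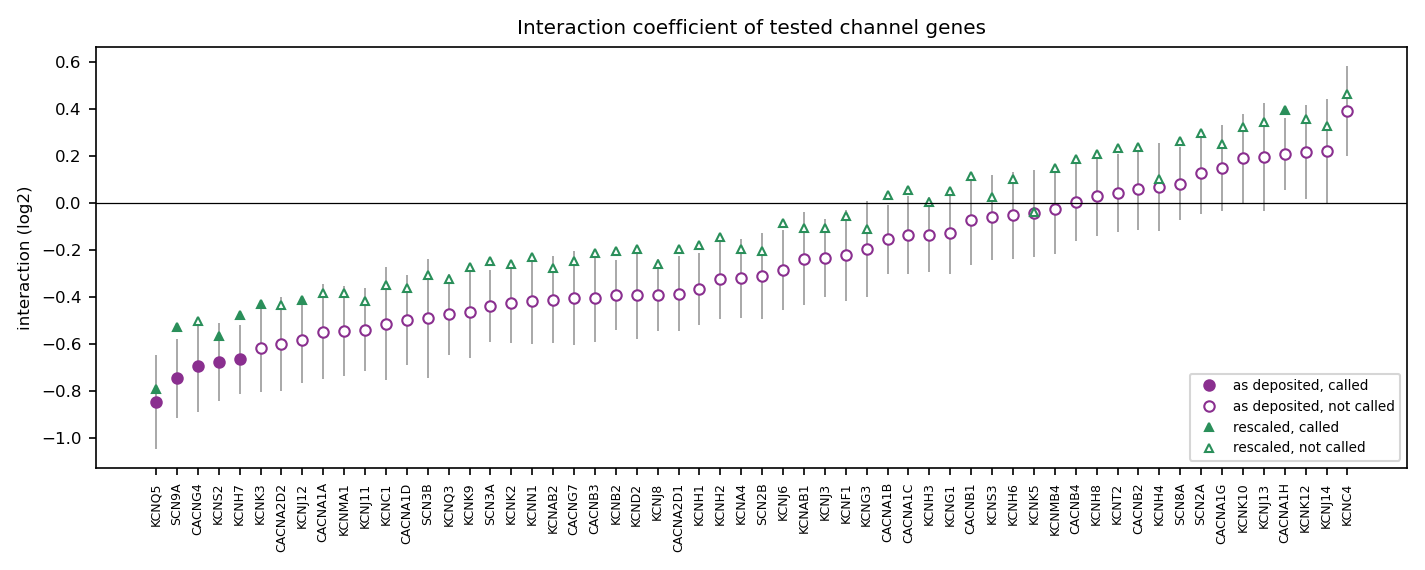
Interaction coefficient (log2) of 58 tested channel genes, with circles and SE bars for the deposited CPM and triangles for the rescaled CPM, filled where called. Among the genes drawn KCNQ5 lies lowest at -0.84 as deposited, and most lie higher after rescaling; 4 tested genes, 1 of them called, are not drawn.

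Other genes that handle the same ions were 56 listed genes, of which 41 were tested. They encode pumps, exchangers, pacemaker channels, epithelial sodium channels, store-operated calcium channels, intracellular release channels and channel-binding proteins, among others. Of the 41 tested, 23 rose and 2 fell in siMYCN, where 17.4% of all tested genes were higher and 16.3% lower. In siHAND2 12 rose and 13 fell, against 12.3% and 30.4% of all, and in the combined knockdown 17 rose and 15 fell, against 17.4% and 50.1%. After rescaling the numbers were 25 and 3 (25.4% and 22.5% of all), 18 and 12 (25.9% and 24.9%), and 22 and 13 (37.7% and 33.0%). ANK2, which encodes ankyrin B, a membrane scaffold of channels and exchangers, stood at 123, 131 and 106 CPM in siCtrl, 281, 273 and 253 in siMYCN, 275, 277 and 254 in siHAND2 and 428, 583 and 438 in the combined knockdown, with log2 changes of 1.17 ± 0.13, 1.16 ± 0.13 and 1.99 ± 0.13. RYR2, an intracellular calcium release channel, rose by 1.20 ± 0.11, 0.91 ± 0.11 and 1.40 ± 0.11. HCN4, a pacemaker channel opened by hyperpolarisation, rose by 0.48 ± 0.11, 1.45 ± 0.11 and 1.04 ± 0.11. SLC8A1, the sodium-calcium exchanger, rose by 0.38 ± 0.11 in siMYCN and fell by 1.29 in siHAND2 and 1.66 in the combined knockdown. GEM, a GTPase that inhibits calcium channels through their beta subunit, stood at 4.02, 4.27 and 4.22 CPM in siCtrl and 1.11, 0.803 and 0.536 in the combined knockdown, falling by 1.24 in siHAND2 and 1.52 in the combined knockdown. ATP1B3, a beta subunit of the sodium pump, fell by 0.73, 0.84 and 1.38.

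The remaining 73 members had a mean under 1 CPM and were not tested. Of these 7 were listed at 0 in all samples (CACNA2D3, CACNG6, KCNA5, KCNE3, KCNJ15, KCNK16 and KCNK18), and 21 stayed under 3 reads in every sample, at no more than 0.0634 CPM. The 21 included the skeletal muscle genes CACNA1S and SCN4A, the nociceptor gene SCN10A, the cardiac partners KCNQ1 and KCNE1, and CACNA1E, CACNG3, KCNA1, KCNA7, KCNA10, KCND3, KCNE4, KCNG4, KCNH5, KCNIP4, KCNJ1, KCNK4, KCNK17, KCNU1, KCNV1 and SCN7A. The other 45 reached 3 reads in at least 1 sample and had means of 0.0157 to 0.978 CPM, among them SCN1A, SCN4B, SCN11A, the remaining KCNIP, KCNMB and KCNN genes, KCNT1, KCNJ2, KCNJ4, KCNJ5, KCNJ10, KCNJ16 and KCNJ18. Among the rest of the 45 were CACNA1I, CACNA2D4, CACNG1, CACNG2, CACNG5 and CACNG8 of the calcium channel genes, KCNK1, KCNK6, KCNK7, KCNK13 and KCNK15 of the 2-pore-domain genes, the KCNE2 and KCNE5 auxiliary subunits, and KCNA2, KCNA3, KCNA6, KCNC2, KCND1, KCNG2, KCNJ9, KCNS1 and KCNV2, together with KCNAB3 and CACNA1F. KCNAB3 and CACNA1F lay just under the limit at means of 0.978 and 0.969 CPM, and KCNH4 and SCN2B just over it at 1.06 and 1.07.

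A pair of these low members, chosen after their values were seen, was close to 0 in siCtrl and not in the combined knockdown. KCNJ9, another subunit of the G-protein-gated inward rectifier, stood at 0.0276, 0.0229 and 0.0524 CPM in siCtrl, 0.422, 0.420 and 0.259 in siMYCN, 0.317, 0.353 and 0.381 in siHAND2 and 1.09, 0.855 and 0.805 in the combined knockdown. KCNA2, a Shaker subunit of myelinated axons, stood at 0.110, 0.0686 and 0 CPM in siCtrl, 0.317, 0.247 and 0.306 in siMYCN, 0.317, 0.442 and 0.238 in siHAND2 and 0.935, 1.24 and 0.902 in the combined knockdown. The combined samples of both lay above all others, at a level where 3 reads correspond to at most 0.0949 CPM. Low members also went the other way, and the pair does not stand for them all. KCNK13 averaged 0.031 CPM after siHAND2 and 0.125 after the combined knockdown, against 0.399 for the controls. KCNK1 averaged 0.223 CPM after the combined knockdown, against 0.692 for the controls.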

How the data were processed

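The authors deposited CPM per gene and sample; STAR 2.5.1 and Partek are named in the submitters' processing notes, and the counting and its strand use are not given in the sources used here. Gene positions are in hg19 per the labels. Every deposited CPM value holds a constant of 0.0001, which was subtracted only to estimate depth and read limits. The values tested and printed keep it, except that values at the constant are given as 0. Depth was estimated from the step between low CPM values; 88.7 to 90.2% of values under 20 reads came out whole (within 0.05 reads), so no count test was run.

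Values were log2(CPM + 1), with a pseudocount of 1. All 12 samples were fitted by group with limma 3.58.1 (R 4.3.3, trended eBayes, 8 residual degrees of freedom, two-sided, Benjamini-Hochberg over 12680 genes), after a check on simulated data. The channel genes and lists were chosen with earlier results of these data known. Values per sample are given for the 6 largest rises and falls per knockdown, interaction calls, opposite calls and the highest gene per class; some genes are counted but not reported here by name. Canonical transcript lengths were found for 133 of 135 channel genes in GENCODE, and RefSeq upstream windows for 97. Same-numbered samples deviated together (every correlation over 0.1) for siCtrl with siMYCN (0.44, 0.15 and 0.31) and siMYCN with siHAND2 (0.33, 0.14 and 0.32), and not for the other pairs of groups. Alternatives were rescaling, a replicate block, other pseudocounts, filters and thresholds, and each sample left out.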

Additional observations from a re-analysis of the deposited data

Results flagged for a closer look

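For 5 channel genes the effect of one siRNA differed with the presence of the other, by the limma test of the interaction coefficient. The coefficient was -0.84 for KCNQ5, -0.75 for SCN9A, -0.69 for CACNG4, -0.68 for KCNS2 and -0.66 for KCNH7, on the log2(CPM + 1) scale with siCtrl as the reference. The median of all tested genes was -0.18, and the coefficient of CACNG4 was -0.50 and not called after rescaling (adjusted p = 0.065). KCNQ5, SCN9A and KCNH7 stayed called whichever sample was left out. CACNG4 was not called without siCtrl replicate 1 or 3, siMYCN replicate 1 or 2, siHAND2 replicate 1 or 2, or combined replicate 3. KCNS2 was not called without siCtrl replicate 1, siMYCN replicate 2 or 3, or siHAND2 replicate 1. With no filter KCNH7 alone of the 5 was called.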

How the results depend on the processing

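Counts of channel genes called are given in the order siMYCN, siHAND2 and combined against siCtrl, combined against siMYCN and siHAND2, siMYCN against siHAND2, and the interaction. With an absolute log2 change of at least 1 they were 6, 12, 23, 10, 3, 9 and 1, where 2.29%, 4.00%, 16.6%, 7.62%, 1.68%, 3.21% and 0.544% of all tested genes were called. With a mean CPM of at least 5, where 34 of the genes were tested, they were 22, 21, 26 and 26 in the first 4 comparisons and 17 for siMYCN against siHAND2, where 33.9%, 43.6%, 69.7%, 62.5% and 35.1% of all were. The interaction count of 6 became 2 at an adjusted p under 0.01 (1.33% of all) and 2 with no filter (0.739% of all), where more genes share the adjustment. Leaving out each sample gave ranges of 27 to 41, 29 to 42, 43 to 48, 37 to 44, 23 to 33, 23 to 32 and 4 to 23, the last at 23 without combined replicate 1, and the share of all genes called ranged over 25.3 to 45.4%, 33.9 to 54.7%, 61.8 to 73.7%, 50.6 to 70.7%, 30.8 to 54.9%, 25.7 to 48.0% and 2.07 to 35.0%. A sample left out leaves 2 in its group.

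With the replicate block the counts were 41, 39, 49, 44, 31, 29 and 12, and the interaction count with rescaling and the block was 11 (9.95% of all). The block changed 3 calls in the comparisons whose samples the numbers pair, among them those of KCNK2 and CACNG4. The cause of the change of the interaction count with the block was not tested.

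Of 72 called changes of the genes given with values per sample, 60 kept direction and call at the 0.05 threshold in every refit that tested the gene, and none reversed. At an adjusted p under 0.01 61 of the 72 were called, and with an absolute log2 change of at least 1 35 were. With no filter 8 calls were lost, with rescaling 3, with a pseudocount of 0.1 1, with the block 0, and in at least 1 fit without a sample 9. Depth limits the genes under 3 reads, which correspond to at most 0.0949 CPM.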
